A study of Mus musculus with 6 samples.

Results

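The genes described here are 10 Toll-like receptors and accessory proteins of B cells, namely the receptors Tlr1, Tlr2, Tlr4, Tlr6, Tlr7 and Tlr9, the accessory proteins Cd180, Ly86 and Unc93b1, and the adaptor Myd88. They were chosen by gene symbol, and all 10 were found among the 20433 gene names of the authors' deposited table (names that read as dates left out), with 11 of its 25017 entries. RNA was sequenced from follicular B cells sorted as B220+AA4.1-CD23+CD21lo cells, in 3 CD23Cre+Myh9wt/fl mice and 3 CD23Cre+Myh9fl/fl mice on the C57BL/6 background. For cells analysed ex vivo, the study's methods describe male and female mice some weeks old, without singling out the sequenced animals. In both groups Cre recombinase is driven by the promoter of CD23 (Fcer2a), a gene of mature B cells, and exon 3 of Myh9 lies between LoxP sites, on 1 allele in CD23Cre+Myh9wt/fl and on both in CD23Cre+Myh9fl/fl mice. The comparison group therefore carries Cre as well and is haploinsufficient for myosin IIa, not wild-type; below, CD23Cre+Myh9wt/fl cells are called haploinsufficient and CD23Cre+Myh9fl/fl cells myosin IIa-deficient. The RNA was amplified before the libraries were made. The authors pooled the samples of a genotype into 1 value per entry, in fragments scaled to transcript length and sequencing depth (FPKM), so that the values below carry no spread between mice, and no test was run here. Read depth is unknown.

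Toll-like receptors bind conserved molecules of microbes, such as lipopeptides and lipopolysaccharide at the cell surface and nucleic acids in endosomes, and most of them signal through the adaptor MyD88 to NF-kB and interferon regulatory factors. B cells carry them beside the B cell antigen receptor, and ligands such as lipopolysaccharide and CpG DNA drive B cells into proliferation and antibody secretion. B cells also carry RP105, the product of Cd180, which resembles Tlr4 outside the cell but lacks the intracellular signaling domain, and which reaches the surface with its partner MD-1, the product of Ly86.

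Myh9, the targeted gene, was at 50.6 FPKM in haploinsufficient and 21.1 FPKM in myosin IIa-deficient follicular B cells, in the direction of the labels. These values cover the whole gene and not exon 3 alone. Levels of all genes were compared as FPKM summed over the entries of a gene, and differences as the log2 ratio of CD23Cre+Myh9fl/fl over CD23Cre+Myh9wt/fl after adding 1 FPKM to each value, which understates the difference of low genes. None of the 10 receptors and accessory proteins differed by 1.5-fold between the genotypes (0 of 10), whereas 2.32% of the 9866 genes that averaged 1 FPKM or more did. Of all 9866 genes, 0.791% were higher and 1.53% lower by 1.5-fold in myosin IIa-deficient cells. All 10 passed that minimum. Their median log2 ratio was 0.03, and that of all 9866 genes was 0.0026. At that background a count of 0 is not a result about these 10 genes.

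The 10 genes spanned a wide range of levels. From the highest to the lowest, the order was Cd180, Ly86, Unc93b1, Tlr1, Tlr9, Tlr7, Myd88, Tlr4, Tlr2 and Tlr6, and the order was the same in both genotypes. The level of Cd180 was 148 times that of Tlr6 in haploinsufficient cells and 192 times in myosin IIa-deficient cells. The 3 accessory proteins were thus more abundant as mRNA than any of the 6 receptors. The 6 receptors together summed to 211 FPKM in haploinsufficient and 209 FPKM in myosin IIa-deficient cells.

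**Figure D1:**
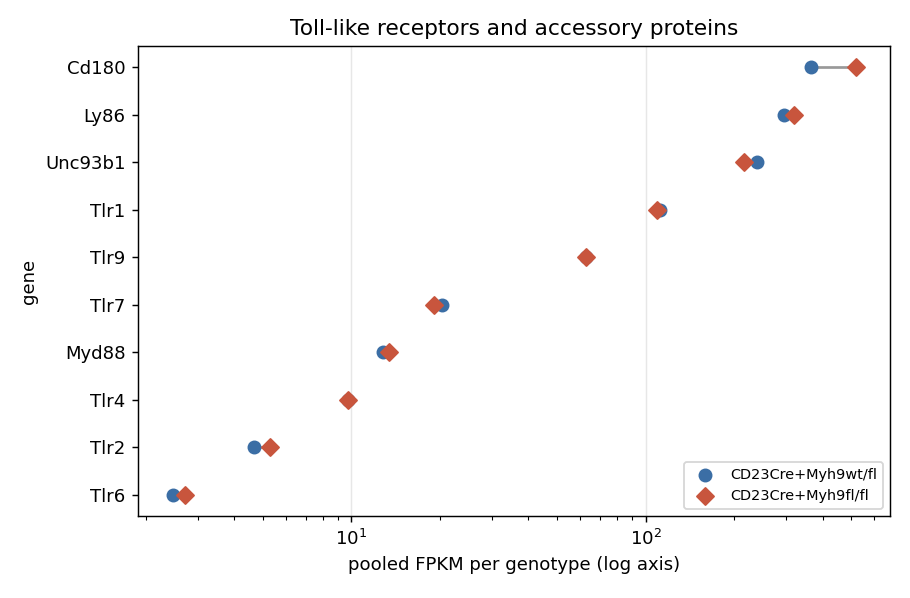
Pooled FPKM of the 10 genes (log axis), with circles for CD23Cre+Myh9wt/fl and diamonds for CD23Cre+Myh9fl/fl follicular B cells and a grey line between the values of a gene. The symbols overlap or lie close together for every gene but Cd180, which was at 365 and 521 FPKM.

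The promoters of 7 of the 10 genes could be matched by symbol to RefSeq sequences (GRCm38.p6) that run from 250 bases before to 50 bases after a listed start. Those of Cd180, the gene with the largest difference, of Tlr9, and of Tlr1 and Tlr6, neighbours with very different levels, are shown 5′ to 3′ on the strand of the gene, at the first listed start. Capitals mark matches on either strand to the octamer of Oct factors (ATGCAAAT), to its first 6 letters (ATGCAA, which lie within the octamer), to a core bound by PU.1 (GAGGAA) and to a TATA element (TATAAA). These motifs were chosen after the sequences had been seen. Of 32851 promoter windows of the same length, 1.74% hold the octamer, 10.7% its first 6 letters, 28.3% the PU.1 core and 13.6% the TATA element.
Cd180, chr13:102693297-102693596, plus strand: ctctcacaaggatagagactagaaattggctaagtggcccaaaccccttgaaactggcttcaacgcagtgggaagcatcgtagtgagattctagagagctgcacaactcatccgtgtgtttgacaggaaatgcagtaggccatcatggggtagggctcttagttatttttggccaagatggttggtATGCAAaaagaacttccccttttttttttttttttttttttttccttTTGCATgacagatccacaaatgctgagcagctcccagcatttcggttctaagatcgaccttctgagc
Tlr9, chr9:106222348-106222647, plus strand: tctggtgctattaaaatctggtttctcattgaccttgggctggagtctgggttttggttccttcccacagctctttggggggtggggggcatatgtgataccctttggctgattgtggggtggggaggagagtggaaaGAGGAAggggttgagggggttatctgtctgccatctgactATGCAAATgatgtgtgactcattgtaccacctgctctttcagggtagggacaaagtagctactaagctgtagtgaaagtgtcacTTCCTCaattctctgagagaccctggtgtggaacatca
Tlr1, chr5:64933509-64933808, minus strand: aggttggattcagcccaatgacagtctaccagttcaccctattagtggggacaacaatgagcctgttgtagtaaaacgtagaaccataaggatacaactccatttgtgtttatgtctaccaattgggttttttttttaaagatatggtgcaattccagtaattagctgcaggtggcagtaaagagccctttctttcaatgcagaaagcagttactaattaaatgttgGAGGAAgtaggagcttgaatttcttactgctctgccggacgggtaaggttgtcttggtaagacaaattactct
Tlr6, chr5:64959117-64959416, minus strand: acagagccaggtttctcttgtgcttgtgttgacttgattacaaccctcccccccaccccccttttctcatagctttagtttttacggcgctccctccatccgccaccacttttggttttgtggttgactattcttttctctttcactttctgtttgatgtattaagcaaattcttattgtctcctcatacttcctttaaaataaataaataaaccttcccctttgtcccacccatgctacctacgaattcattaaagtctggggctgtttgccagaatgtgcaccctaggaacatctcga
The Tlr9 window holds 1 full octamer, its first letter at -72 with the start as 0, and 2 PU.1 cores. The Cd180 window holds the 6 letters 2 times, once on each strand, and no full octamer. The Tlr1 window shown holds 1 PU.1 core, at -23, and the Tlr6 window shown none of the 4 motifs. Tlr1 and Tlr6 each have a second listed start, whose windows hold other matches, 1 copy of the 6 letters, at -213, and no PU.1 core in Tlr1, and 3 TATA elements in Tlr6. A match describes the letters and does not show that a factor binds there. Which listed start the measured transcripts used was not tested, so the windows shown need not be those of the transcripts counted.

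Among the receptors at the cell surface, Tlr1 was the most abundant. Tlr2 recognizes lipopeptides as a pair with Tlr1 or Tlr6, triacylated ones with Tlr1 and diacylated ones with Tlr6. Tlr1 (mm9 chr5:65315918-65324797) was at 112 FPKM in haploinsufficient and 110 FPKM in myosin IIa-deficient follicular B cells, a log2 ratio of -0.03, and 96.5% and 96.6% of the genes with any FPKM lay below it. Tlr2 (mm9 chr3:83640193-83645530) was at 4.65 and 5.28 FPKM, a log2 ratio of 0.15. Tlr6 (mm9 chr5:65344333-65351273) was at 2.46 and 2.72 FPKM, a log2 ratio of 0.10. The common partner Tlr2 and the alternative partner Tlr6 both had a mean over the genotypes between 1 and 5 FPKM, where 6.36% of 2137 genes passed 1.5-fold in either direction. The level of Tlr1 was 24.0 times that of Tlr2 in haploinsufficient cells and 20.7 times in myosin IIa-deficient cells.

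Tlr1 and Tlr6 are neighbours on chromosome 5, with 19535 bases between them in the positions of the table, which are read as mm9. The level of Tlr1 was 45.3 times that of Tlr6 in haploinsufficient cells and 40.4 times in myosin IIa-deficient cells. The genes are close paralogs, and their fragments may have been split between them. In the protein-coding transcripts of the GENCODE M21 annotation, 14.8% of the stretches of 50 bases in Tlr1 also occur in Tlr6, and 12.3% of those in Tlr6 occur in Tlr1. The level of Tlr6 is uncertain for this reason, since fragments of the more abundant Tlr1 could have been counted for it. Among the transcripts of the 6 receptors and Cd180, no other pair shared such a stretch.

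Tlr4, the receptor for lipopolysaccharide (mm9 chr4:66488844-66503830), was at 9.75 FPKM in haploinsufficient and 9.73 FPKM in myosin IIa-deficient cells, with a log2 ratio of -0.0025. Tlr4 and Tlr9 were the receptors with the smallest differences between the genotypes, also after either scaling. The difference was at least as large as that of Tlr4 for 99.0% of the genes between 5 and 20 FPKM, of which 1.34% passed 1.5-fold.

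Of the receptors in endosomes, Tlr9 senses DNA with unmethylated CpG and Tlr7 single-stranded RNA. Tlr9 (mm9 chr9:106124928-106129207) was at 62.6 FPKM in haploinsufficient and 62.8 FPKM in myosin IIa-deficient cells, a log2 ratio of 0.01 that turned to -0.01 when both genotypes were scaled to the same upper quartile. Tlr7 (mm9 chrX:163742862-163768460) was at 20.4 and 19.1 FPKM, a log2 ratio of -0.09. Tlr9 was thus the more abundant receptor for nucleic acids, at 3.07 times the level of Tlr7 in haploinsufficient and 3.29 times in myosin IIa-deficient cells. Between 20 and 100 FPKM, the range of Tlr9, 0.954% of 3146 genes passed 1.5-fold.

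Unc93b1, which carries the receptors for nucleic acids from the endoplasmic reticulum to endosomes (mm9 chr19:3935185-3949340), was the only 1 of the 10 genes with 2 entries. Together they came to 239 FPKM in haploinsufficient and 217 FPKM in myosin IIa-deficient cells, a log2 ratio of -0.14, the lowest among the 10 genes when entries are summed. The larger entry was at 162 and 153 FPKM and the smaller at 76.9 and 63.3 FPKM, so the smaller entry made up 32.2% of the gene in haploinsufficient and 29.2% in myosin IIa-deficient cells. Both entries have the same span, and the share of each depends on how the software divided fragments between transcripts. The level of Unc93b1 mRNA was 2.88 times the summed level of its clients Tlr7 and Tlr9 in haploinsufficient and 2.65 times in myosin IIa-deficient cells.

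Cd180 (mm9 chr13:103483637-103496711) differed most among the 10 genes, under every setting tried. It was at 365 FPKM in haploinsufficient and 521 FPKM in myosin IIa-deficient follicular B cells, 1.43-fold higher in the latter, with a log2 ratio of 0.51 that stayed under the 1.5-fold limit of 0.58. Ly86 (mm9 chr13:37437213-37510905), whose product binds RP105, was at 296 and 319 FPKM, a log2 ratio of 0.10. The level of Cd180 was accordingly 1.23 times that of its partner Ly86 in haploinsufficient cells and 1.63 times in myosin IIa-deficient cells. Cd180 ranked 165 among all genes in haploinsufficient and 133 in myosin IIa-deficient cells. For the other 9 genes the log2 ratio lay between -0.14 and 0.15.

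Among the 618 genes over 100 FPKM, the range of Cd180, Ly86, Unc93b1 and Tlr1, 1.62% passed 1.5-fold in either direction. A log2 ratio at least as far from 0 as that of Cd180 was found for 15 of the 618 genes, which is 2.43%. Cd180 was picked for this comparison as the gene of the 10 with the largest difference in these same values. The share is therefore a description and not a test of Cd180. The log2 ratio was positive in 2 of the 15, Cd180 itself and Serpinb1a, an inhibitor of serine proteases that was named after its values were seen. Serpinb1a was at 120 FPKM in haploinsufficient and 173 FPKM in myosin IIa-deficient cells. At a lower limit, a log2 ratio of 0.32, Cd180 was the 1 gene of the 10 that passed, beside 10.1% of all genes in either direction and 2.43% of the genes over 100 FPKM in the higher direction. A count of 1 among 10 genes is near the 10.1% of all genes and is not a result about them. In GENCODE M21, 182 of the 4509 exon bases of Cd180 lie over exons of Mast4 on the opposite strand. Mast4 was at 13.6 and 17.1 FPKM, and whether fragments were counted by strand is not given in the sources used here.

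**Figure D2:**
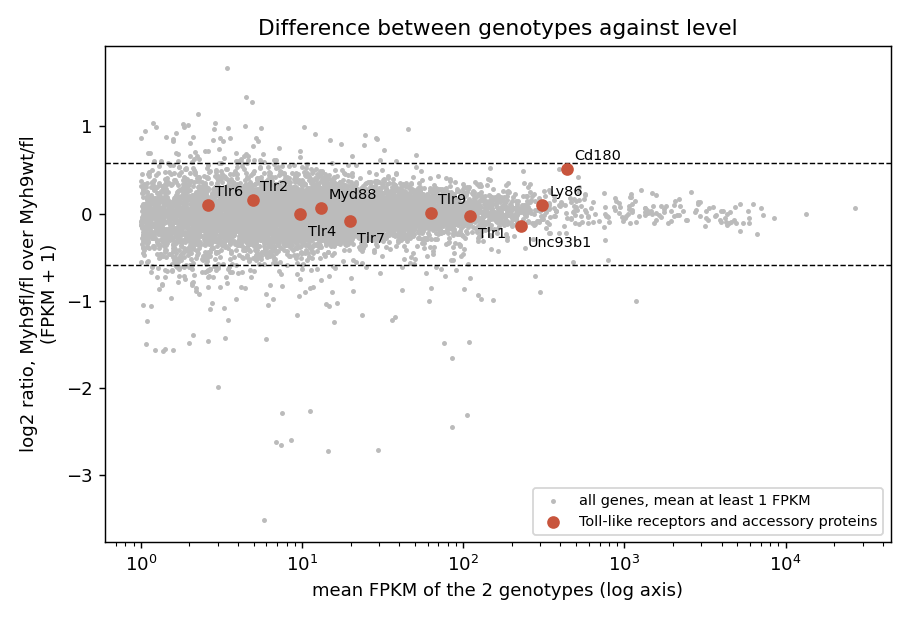
Log2 ratio of CD23Cre+Myh9fl/fl over CD23Cre+Myh9wt/fl (1 FPKM added to each) against the mean FPKM of the genotypes (log axis), with 1 grey point for each of the 9866 genes and red points for the receptors and accessory proteins. Dashed lines stand at 1.5-fold, and Cd180, at 0.51, lies just under the upper line at the edge of the cloud.

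Myd88, the adaptor of the 6 receptors (mm9 chr9:119245105-119249158), was at 12.8 FPKM in haploinsufficient and 13.4 FPKM in myosin IIa-deficient cells, a log2 ratio of 0.06. Its level was lower than that of Tlr1, Tlr9 and Tlr7. Set against the sum of the 6 receptors, Myd88 came to 0.0604 in haploinsufficient and 0.0640 in myosin IIa-deficient cells. Of the 10 genes, 6 were higher and 4 lower in myosin IIa-deficient cells, and 5 were higher after scaling to the same upper quartile.

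The rest of the pathway was followed in 10 lists with 109 genes, of which 108 were in the table and 94 averaged 1 FPKM or more. In these lists 3 genes were higher by 1.5-fold in myosin IIa-deficient cells (Tnf, Slamf1 and Ly96) and 2 were lower (Ccl3 and Mavs), which is 5.32% of the 94 genes, beside the 2.32% of all genes above. Ly96 and Ccl3 averaged under 5 FPKM, the range in which such differences were most frequent. With a minimum of 5 FPKM the count was 3, beside 1.20% of the 7729 genes that reached it. With a pseudocount of 0.1 the count was 7, beside 4.20% of all 9866 genes. Over the 94 genes the median log2 ratio was 0.02. The lists were chosen with earlier results of these data known, so these shares describe them and do not test them.

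The other Toll-like receptors were at low levels. Of 6 listed, Tlr3, a receptor for double-stranded RNA, was the only 1 that reached 1 FPKM, with 1.58 FPKM in haploinsufficient and 1.64 FPKM in myosin IIa-deficient cells. Tlr12 was at 0.632 and 0.872 FPKM and Tlr13 at 0.457 and 0.406 FPKM. To complete the list, Tlr8, the neighbour and relative of Tlr7, was at 0.121 and 0.0773 FPKM. Tlr5, the receptor for flagellin, and Tlr11 were listed at 0 in haploinsufficient cells and were at 0.0453 and 0.138 FPKM in myosin IIa-deficient cells. Follicular B cells of both genotypes thus had Tlr1, Tlr9, Tlr7 and Tlr4 as the most abundant receptor transcripts.

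The proteins that present lipopolysaccharide and lipopeptides gave 2 of 4 genes above 1 FPKM. Ly96, whose product MD-2 binds lipopolysaccharide together with Tlr4, was at 3.23 FPKM in haploinsufficient and 5.79 FPKM in myosin IIa-deficient cells, a log2 ratio of 0.68. Cd36, a scavenger receptor that helps Tlr2 and is also a marker of marginal zone B cells, was at 7.82 and 8.27 FPKM. Cd14, the coreceptor of Tlr4 on myeloid cells, was at 0.366 and 0.0817 FPKM, below the minimum in both genotypes. MD-2 and MD-1 are relatives, and Ly96, the partner of Tlr4, was far below Ly86, the partner of Cd180, at 296 and 319 FPKM.

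Of 13 genes for chaperones and trafficking, 0 passed 1.5-fold, beside 2.32% of all genes, and a count of 0 in a list of this size says little about the list. The most abundant was Hsp90b1, the chaperone gp96 that folds most Toll-like receptors, at 423 FPKM in haploinsufficient and 363 FPKM in myosin IIa-deficient cells, a log2 ratio of -0.22. Rab7, a GTPase of late endosomes, was at 277 and 313 FPKM, and Arf1, a GTPase of the Golgi, at 132 and 131 FPKM. The median log2 ratio of the list was -0.01. Of 11 endosomal proteases and nucleases above the minimum, 0 passed 1.5-fold with a pseudocount of 1, with the same limit to its meaning, and their median was -0.06. With a pseudocount of 0.1, 2 of them passed, beside 4.20% of all 9866 genes at that setting. These 2 were the protease Ctsk at 1.29 and 2.15 FPKM and the nuclease Rnaset2b at 1.42 and 0.832 FPKM, both low genes. Among the 11, Ctss, the protease cathepsin S, was at 530 and 597 FPKM, and Ifi30, a reductase of lysosomes, at 313 and 300 FPKM. Pld4, a nuclease that degrades ligands of Tlr9, was at 75.6 and 69.4 FPKM.

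Downstream of the receptors, the adaptors, kinases, ligases and transcription factors were followed in 3 lists. None of their genes of at least 1 FPKM passed 1.5-fold, and with 2.32% of all genes past it, counts of 0 in lists of this size say little about the lists. Of 4 other adaptors above the minimum, 0 passed 1.5-fold. Pik3ap1 (BCAP), which links Toll-like receptors to phosphoinositide 3-kinase, was the highest at 56.0 FPKM in haploinsufficient and 56.9 FPKM in myosin IIa-deficient cells. Ticam1 (TRIF), the adaptor of Tlr3, was at 16.9 and 18.4 FPKM, and Tirap, which brings Myd88 to Tlr2 and Tlr4, at 6.77 and 6.42 FPKM. These 3 adaptors were within 0.12 on the log2 scale.

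Of the 16 kinases and ligases that act after Myd88, 0 passed 1.5-fold, and the median log2 ratio was 0.01. The highest were Ikbkb, a kinase of the inhibitor of NF-kB, at 67.4 FPKM in haploinsufficient and 61.0 FPKM in myosin IIa-deficient cells, Tab2 at 61.5 and 62.3 FPKM, and Ube2v1 at 63.8 and 58.6 FPKM. Of 10 transcription factors, 0 passed 1.5-fold, with a median of 0.01. Rel, the NF-kB subunit c-Rel, was at 139 and 120 FPKM, Irf8 at 106 and 109 FPKM, and Irf5, which is activated through Myd88, at 70.4 and 70.8 FPKM.

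Of 14 negative regulators above the minimum, 0 passed 1.5-fold, beside 2.32% of all genes, which again says little about the list, and their median log2 ratio was 0.06. Tax1bp1, which works with the ubiquitin editor A20, was at 127 FPKM in haploinsufficient and 146 FPKM in myosin IIa-deficient cells. Dok3 was at 91.1 and 85.2 FPKM. Fam105b, now called Otulin, which removes linear ubiquitin chains, was at 85.5 and 102 FPKM, a log2 ratio of 0.25.

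Of 15 genes above the minimum that ligands of Toll-like receptors induce in B cells, 3 passed 1.5-fold, beside 2.32% of all genes, and these did not go in 1 direction. The list is small and was chosen with earlier results of these data known, so this count is not a test of it. Tnf, a cytokine, was at 12.4 FPKM in haploinsufficient and 22.3 FPKM in myosin IIa-deficient cells, a log2 ratio of 0.80. Slamf1 (CD150), a receptor on lymphocytes, was at 23.8 and 40.3 FPKM, a log2 ratio of 0.73. Ccl3, a chemokine, was at 1.74 and 0.325 FPKM, a log2 ratio of -1.05, in the range of 1 to 5 FPKM where 6.36% of genes passed. With a minimum of 5 FPKM the list kept 2, beside 1.20% of the 7729 genes that reached it. Of the 15 genes, 6 were higher and 9 lower, with a median of -0.08. The most abundant, the surface protein Cd83, was at 159 and 134 FPKM, Myc at 45.7 and 46.4 FPKM, and Bcl2a1b, an inhibitor of apoptosis, at 32.6 and 35.0 FPKM. Bcl2a1b has close copies in the genome, and its level is uncertain for that reason.

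Among 8 sensors of nucleic acids in the cytosol, Mavs was the 1 gene past 1.5-fold, beside 2.32% of all genes and 0.954% of the genes of 20 to 100 FPKM. Mavs, the mitochondrial adaptor of the sensors for viral RNA, was at 25.5 FPKM in haploinsufficient and 14.9 FPKM in myosin IIa-deficient cells, a log2 ratio of -0.74. Its larger entry was at 25.3 and 14.3 FPKM and its other entry at 0.113 and 0.527 FPKM. Ddx58, the gene of the RNA sensor RIG-I that signals through Mavs, was at 30.9 and 31.6 FPKM. Tmem173, the gene of STING, was the most abundant at 51.8 and 60.8 FPKM, and Aim2, a sensor of DNA, was at 41.0 and 43.5 FPKM. The median log2 ratio of the list was 0.03.

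**Figure D3:**
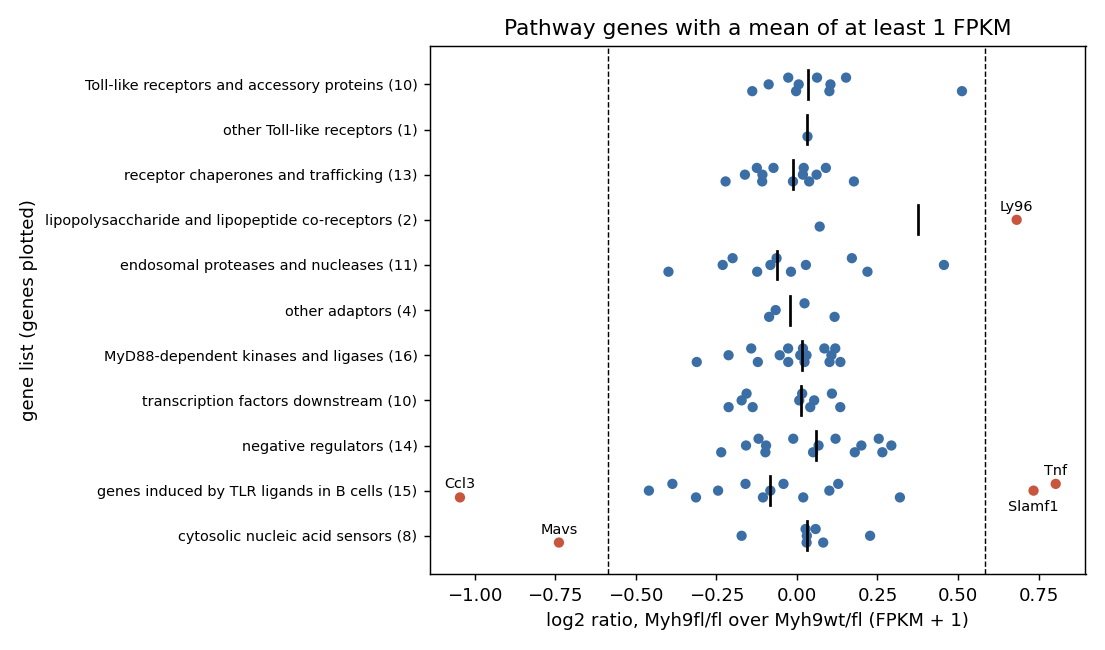
Log2 ratio of CD23Cre+Myh9fl/fl over CD23Cre+Myh9wt/fl (1 FPKM added to each) for every gene that averaged 1 FPKM or more in the set of receptors and accessory proteins and in the 10 pathway lists, with a black bar at the median of each list. Dashed lines stand at 1.5-fold, and the 5 genes beyond them, Tnf, Slamf1, Ly96, Ccl3 and Mavs, are in red.

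The sorted cells had the markers of B cells in both genotypes. All 10 B cell markers were above 100 FPKM, led by Cd79b at 1638 FPKM in haploinsufficient and 1739 FPKM in myosin IIa-deficient cells, and none passed 1.5-fold, beside 1.62% of all genes over 100 FPKM. Fcer2a (CD23), the marker of the sort whose promoter drives Cre, was at 439 and 588 FPKM, a log2 ratio of 0.42, the highest of the 10 markers. These are sums over 7 entries, of which the largest was at 378 and 501 FPKM, a log2 ratio of 0.41. Fcer2a and Cd180 were thus both higher in myosin IIa-deficient cells. Both passed a log2 ratio of 0.32, as did 2.43% of the genes over 100 FPKM in the higher direction. Of 7 markers of marginal zone B cells, Cd9 was lower by 1.5-fold, beside 1.53% of all genes, at 4.61 and 2.52 FPKM. Cd9 averaged between 1 and 5 FPKM, where 6.36% of genes passed 1.5-fold in either direction. Mzb1, the most abundant of the 7, was at 189 and 140 FPKM. Of the 7, 3 were higher and 4 lower, and S1pr3 was at 2.35 and 2.83 FPKM. The list summed to 326 FPKM in haploinsufficient and 264 FPKM in myosin IIa-deficient cells.

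Markers of neutrophils, which also express Tlr2 and Tlr4 and which the sort for B220+AA4.1-CD23+CD21lo cells should leave out, were lower in myosin IIa-deficient cells. Their 13 genes summed to 387 FPKM in haploinsufficient and 73.3 FPKM in myosin IIa-deficient cells, and 7 of the 9 above the minimum were lower by 1.5-fold, beside 1.53% of all genes. Most of the sum came from S100a9, the most abundant at 175 and 34.5 FPKM, and S100a8 at 145 and 25.8 FPKM. The other 2 of the 9, the receptors Cxcr2 at 5.99 and 4.96 FPKM and Csf3r at 2.32 and 1.51 FPKM, did not pass. Elane and Mpo, at 0.119 and 0.0916 FPKM in haploinsufficient cells, were listed at 0 in myosin IIa-deficient cells, so both were near 0 in either genotype. Beside these markers, Tlr2 was at 4.65 and 5.28 FPKM and Tlr4 at 9.75 and 9.73 FPKM. Ccl3, at 1.74 and 0.325 FPKM, and Cd14, at 0.366 and 0.0817 FPKM, are also expressed by myeloid cells. The part of other cells in the values of Tlr2, Tlr4, Ccl3 and Cd14 was not tested, and fewer cells of a type and less RNA per cell cannot be told apart in bulk RNA.

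The 12 markers of monocytes and macrophages summed to 90.2 FPKM in haploinsufficient and 61.7 FPKM in myosin IIa-deficient cells, of which Lyz2, also a neutrophil gene, gave 72.6 and 44.9 FPKM. The receptor Csf1r, a defining marker of macrophages, was at 1.42 and 1.39 FPKM. The 9 markers of dendritic cells summed to 192 and 177 FPKM, nearly all from Cst3 at 188 and 172 FPKM, and Siglech, the marker of plasmacytoid dendritic cells, was at 0.340 and 0.378 FPKM. The 8 markers of T cells summed to 24.6 and 22.9 FPKM, led by Lck at 14.5 FPKM in both genotypes. Among the other T cell markers, Cd3d was at 3.02 and 2.31 FPKM, Cd3g at 1.96 and 1.26 FPKM and Cd3e at 1.83 and 1.96 FPKM. Ccr9, also found on plasmacytoid dendritic cells, which express Tlr7 and Tlr9, was at 1.57 and 2.05 FPKM. The part of dendritic cells in the levels of Tlr7 and Tlr9 was not tested.

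**Figure D4:**
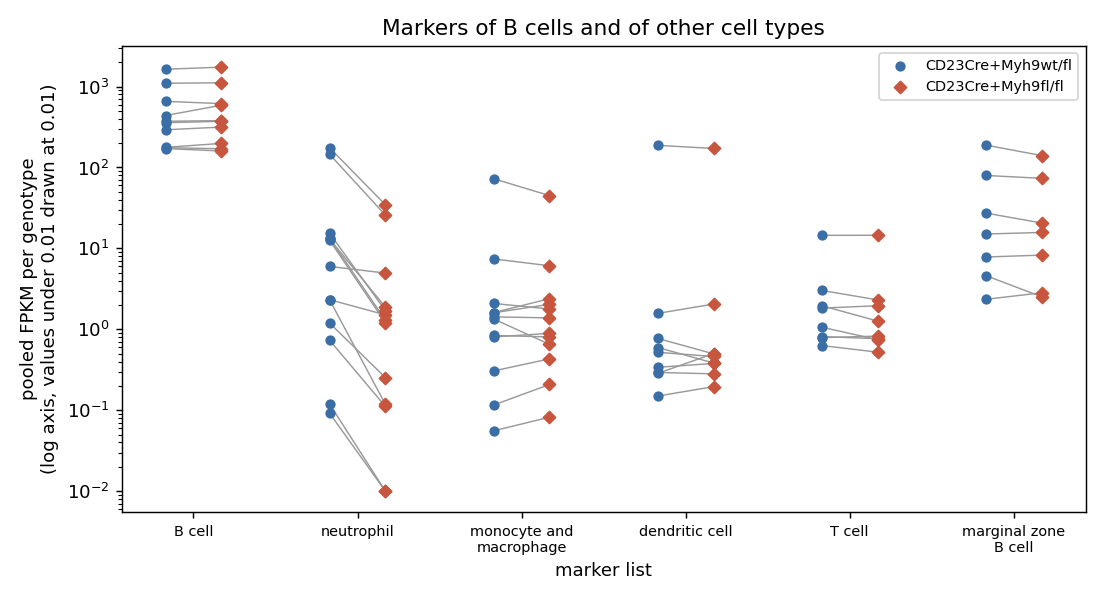
Pooled FPKM (log axis, values under 0.01 drawn at 0.01) of each marker gene in CD23Cre+Myh9wt/fl (circles) and CD23Cre+Myh9fl/fl (diamonds) follicular B cells, with a line for each gene and 1 column pair for each list. B cell markers are high and similar, and neutrophil markers such as S100a9, at 175 and 34.5 FPKM, are lower in the latter.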

How the data were processed

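RNA was sequenced from 3 mice of each genotype after amplification (Ovation RNA-Seq V2, TruSeq Nano). The authors deposited 1 FPKM value per genotype and entry, pooled over its samples; the submitters' processing notes name Bowtie, TopHat, Cufflinks and mm10 (GRCm38), with no versions. Positions in the table are printed as given and read as mm9, since 1 of the 10 genes overlapped its GRCm38 position and sequence names of mm9 such as chrY_random occur. Columns of the authors' own fold change, test statistic, p-value, q-value and call were not used. Low FPKM times transcript length did not fall on steps (28.9% and 36.6% of low values within 0.1 of a whole step), so reads could not be recovered.

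FPKM was summed per gene, leaving out 44 entries with dates as names. The log2 ratio used a pseudocount of 1 and genes averaging 1 FPKM or more; called means past 1.5-fold. With pooled values no test across samples was run. Genes named are the 10 genes, in each pathway list the 3 highest and every gene past 1.5-fold, Myh9, and defining markers; Ctsk, Rnaset2b, Tlr5, Tlr8, Tlr11, Serpinb1a, Mast4 and Pik3r1 were named after their values were seen. The genes and lists were chosen with earlier results of these data known. Of 178 listed symbols, 1 had no entry and 2 were found under older names. Computations ran in Python 3.11.15 with pandas 2.3.3 and numpy 2.4.6 and were tested on simulated data. Alternatives were other pseudocounts, scalings, filters, folds and the highest entry per gene.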

Additional observations from a re-analysis of the deposited data

How the results depend on the processing

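No paired analysis was possible because each genotype has 1 pooled value, and for the same reason no replicate could be left out. The log2 ratios of the 10 genes moved by less than 0.1 under pseudocounts of 0.1 and 0.5, scaling to the same total or upper quartile, the highest entry of each gene and, added after seeing the data, no pseudocount. That of Cd180 stayed between 0.50 and 0.51. Of the 10 genes, 1 (Cd180) passed a log2 limit of 0.32, beside 10.1% of all genes, and 0 passed 2-fold, beside 0.497%. Counts this near the shares of all genes are not a result about the 10 genes. With the highest entry alone, Unc93b1 in haploinsufficient cells was at 162 FPKM, by construction. With a minimum of 5 FPKM, 3 pathway genes were past 1.5-fold in place of 5, since low genes were left out, and with a pseudocount of 0.1 there were 7, with Ctsk and Rnaset2b added. Over all genes, 229 past 1.5-fold (2.32%) became 414 (4.20%) with a pseudocount of 0.1 and 450 (4.56%) with none. They became 93 with a minimum of 5 FPKM (1.20% of 7729 genes), 995 at a log2 limit of 0.32 and 49 at 2-fold. Depth and the spread between mice are unknown, so the precision of each value is too. Partner ratios were tried, after seeing the data, with both scalings, which leave a ratio within a genotype as it is, and with the highest entry, which put Unc93b1 at 1.95 (haploinsufficient) and 1.87 (myosin IIa-deficient) times the sum of Tlr7 and Tlr9 and leaves the other ratios as they were. The medians of the pathway lists were run with a pseudocount of 0.1, the same upper quartile and a minimum of 5 FPKM and moved by less than 0.1, except that the co-receptor list had a median of 0.07 in place of 0.38 with a minimum of 5 FPKM, when 1 gene was left in it. None of the other Toll-like receptors reached that minimum, so their list has no value there.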

Other observations

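Only 2 other genes of the table lie within 1 Mb of Cd180 on chromosome 13, and they were looked at after the values of Cd180 had been seen. Pik3r1, the regulatory subunit of phosphoinositide 3-kinase, was at 30.7 FPKM in haploinsufficient and 28.5 FPKM in myosin IIa-deficient cells, a log2 ratio of -0.10. Mast4, a kinase gene that starts beyond Cd180, had a log2 ratio of 0.31. In the positions of the table Mast4 and Cd180 do not overlap. More genes had any FPKM in myosin IIa-deficient cells (16430) than in haploinsufficient cells (15324), and Tlr5 and Tlr11, at 0.0453 and 0.138 FPKM in the former, were among those listed at 0 in the latter.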
